A study of Bos taurus with 30 samples.

Results

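The miR-193 and miR-365 miRNAs were followed in the arcuate nucleus (ARC) of the hypothalamus, the brain region that reads cues of metabolic status, in 30 Holstein-Friesian bull calves. The members were all rows of the deposited small RNA table whose stem is bta-miR-193a, bta-miR-193b or bta-miR-365, with any arm, which gave 6 of the table's 1030 mature miRNAs. Of the table, 863 miRNAs had a read in at least 1 library. From 2 to 12 weeks of age, 15 calves were on a high plane of nutrition (HI), with 1.5 kg (10 litres) of milk replacer per day and concentrates without limit. The other 15 were on a moderate plane (MOD), with 0.5 kg (4 litres) of milk replacer and 0.5 kg of concentrates per day. The expected gain was 1.0 kg per day for HI and 0.5 kg per day for MOD. No calf carried a genetic modification, all tissue was taken at the end of the feeding period, and each library came from the dissected ARC of 1 calf.

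The set was drawn up because miR-193a-3p, in an earlier look at these same values, differed between the diets and stepped up when the calves were sorted by animal code. These codes, such as A27823, are the sample titles, and no label ties them to a farm, a date or a sequencing run. Differences of miR-193a-3p itself by diet and code are therefore given as a description with no test. The tests asked whether its mates followed it, along the codes, between the diets and from calf to calf.

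The miR-193 and miR-365 genes lie in pairs, so that in mammals a miR-193 hairpin has a miR-365 hairpin close by and the pair is commonly made from 1 primary transcript. In RefSeq (ARS-UCD2.0), MIR365-2 (gene 100313311) and MIR193A (gene 791013) are neighbours with MIR2333 between them, and RAB11FIP4 is the next protein-coding gene beside MIR193A. MIR365-2 overlaps the lncRNA gene LOC132343021, whereas MIR193A lies outside it and overlaps no annotated gene. MIR193B (gene 100313307) and MIR365-1 (gene 100170935) are direct neighbours, both inside the lncRNA gene LOC100849865, with PARN the next protein-coding gene beside MIR365-1. A further gene, MIR193A-2 (gene 100498838), lies within ZNF623. Since the reads had been mapped to another build, ARS-UCD1.2, no positions are given. A hairpin is cut into a 5p and a 3p strand, of which usually 1 is kept in the silencing complex and the other is degraded. The main strands of miR-193a (3p) and miR-193b share their seed, the stretch that pairs with target mRNAs, and thus much of their target range, whereas miR-365 has another seed. miR-193b and miR-365 are best known from work on brown fat and muscle differentiation, and miR-193a-3p from work on tumour suppression. MiR-365-3p has a single row in the table although RefSeq lists 2 genes for it, so its reads cannot be assigned to either pair.

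Levels are given as CPM, the reads of a miRNA scaled to a common library size, with library sizes adjusted by TMM, which corrects for shifts in composition between libraries. Mature miRNAs are of nearly equal length, but ligation and amplification favour some over others, so levels of different miRNAs are compared only coarsely. The most abundant member was miR-193b, with 133.0 ± 32.3 CPM (SD, n = 30), rank 184 of the 863 detected miRNAs. Next were miR-193a-3p with 51.95 ± 21.02 CPM (SD, n = 30, rank 254) and miR-365-3p with 33.3 ± 6.32 CPM (SD, n = 30, rank 284). The minor strand miR-193a-5p stood at 5.41 ± 1.64 CPM (SD, n = 30, rank 379). MiR-193b was above miR-193a-3p in every calf, since the ratio of miR-193a-3p to miR-193b reached at most 0.743. The order of miR-193a-3p and miR-365-3p was not the same in all calves: miR-193a-3p was the lower in 8 of the 9 calves with the lowest codes and in 0 of the other 21.

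The remaining rows were at the limit of detection. MiR-365-5p, the minor strand of miR-365, had a median of 3 reads per library (0 to 13 reads) and 0.315 ± 0.203 CPM (SD, n = 30). It was at or under a floor of 3 reads in 18 libraries, and the 1 library with 0 reads allowed a level of up to 0.387 CPM. The row named miR-193a without an arm, which the table does not tie to a precursor, had 1 read in each of 3 libraries and 0 in the other 27. MiR-2333, whose gene lies between MIR365-2 and MIR193A, had 1 read in 1 library. These rows did not pass the filter on low counts (edgeR's filterByExpr, with a minimum count of 10). The 4 members that passed were miR-193a-3p, miR-193a-5p, miR-193b and miR-365-3p, and 476 miRNAs were tested in all.

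The libraries held from 6291375 to 21083247 miRNA reads. They fell into a shallower group of 21 libraries and a deeper group of 9, and the 9 calves with the lowest codes were all among the shallower. The behaviour of the 4 members along the code order can be read calf by calf.

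**Figure D1:**
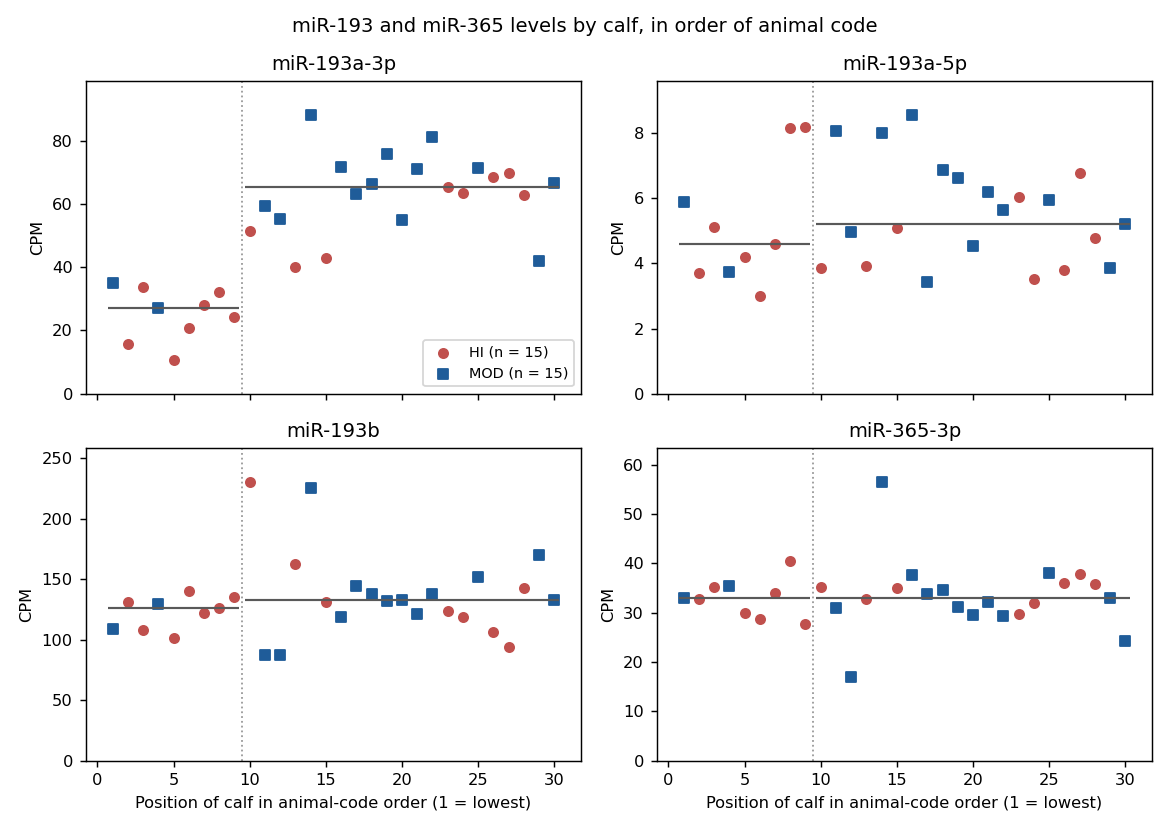
Level of each tested member (CPM, linear axes from 0) in each of the 30 calves, placed in order of animal code, with circles for HI and squares for MOD calves, grey lines for the medians of the 9 lowest codes and the other 21, and a dotted line between them. The step at the dotted line is seen for miR-193a-3p, from a median of 27.0 to 65.2 CPM, whereas the points of the 3 other members overlap across it.

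In the 9 calves with the lowest codes, miR-193a-3p ranged from 10.6 CPM (HI calf A27823) to 34.9 CPM (MOD calf A12937), with a median of 27.0 CPM. In the other 21 calves it ranged from 40.2 CPM (HI calf A42931) to 88.3 CPM (MOD calf A47825), with a median of 65.2 CPM. The ranges did not overlap. The level changed between neighbours in the order, from 24.3 CPM in A37824, the ninth calf, to 51.3 CPM in A37840, the next. Ranges that do not overlap between these calves, in either direction, were found for 7 of 476 miRNAs (1.47%), and for 5 (1.05%) with the lower values in the lowest codes. The boundary after the ninth calf was itself found from these data, so the values on its sides are a description.

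The strand cut from the same hairpin did not show this step. MiR-193a-5p ranged from 3.0 to 8.18 CPM in the 9 lowest codes (median 4.61) and from 3.44 to 8.57 CPM in the others (median 5.20). It rested on 25 to 169 reads per library. Its values overlapped over nearly their whole range, and 2 of the 9 lowest codes (HI calves A31979 and A37824) were at 8.15 and 8.18 CPM, among the highest of all calves.

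MiR-193b, the other miR-193 and the member of the second gene pair, ranged from 101.6 to 139.95 CPM in the lowest codes, with a median of 126.2, and the others reached from 87.4 to 230.6 CPM, with a median of 132.6. The calves of the lowest codes lay inside the range of the others. MiR-365-3p, which both gene pairs can give, ranged from 27.7 to 40.5 CPM in the lowest codes, with a median of 33.1, and the others reached from 16.9 to 56.6 CPM, with a median of 32.9. Here too the lowest codes lay inside the range of the others.

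Because the strands share a library, their ratio does not depend on how libraries were scaled. The ratio of miR-193a-3p to miR-193a-5p was 5.15 ± 1.76 (SD, n = 9) in the lowest codes, from 2.53 to 7.23. In the other 21 calves it was 12.1 ± 3.06 (SD, n = 21), from 7.38 to 18.4. The ratios thus did not overlap, although the nearest values, in A21978 and A38765, were close. For the 42 stems of which both strands passed the filter, a log2 ratio was formed after adding 0.25 to each CPM. Unlike the plain ratio, it is not free of the library scaling, because of this added constant. The log2 ratio did not overlap in 2 of the 42 stems (4.76%), miR-193a and miR-9. The mean of this log2 ratio was higher by 1.27 in the other 21 calves than in the lowest 9 for miR-193a. This was the largest difference of the 42 in size, against a median size of 0.264. These ratios were formed after the values had been seen and contain miR-193a-3p, so they describe the step and do not test it.

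Between the miRNAs of the same seed, the share of miR-193a-3p in the sum of miR-193a-3p and miR-193b was 17.0% ± 5.37 (SD, n = 9) in the lowest codes and 32.3% ± 6.96 (SD, n = 21) in the others. The ranges of this share, from 9.46% to 24.3% and from 18.2% to 42.6%, did overlap. The ratio of miR-193b to miR-365-3p, the partners of 1 gene pair, was 3.76 ± 0.692 (SD, n = 9) in the lowest codes and 4.18 ± 0.955 (SD, n = 21) in the others, with ranges that overlapped.

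**Figure D2:**
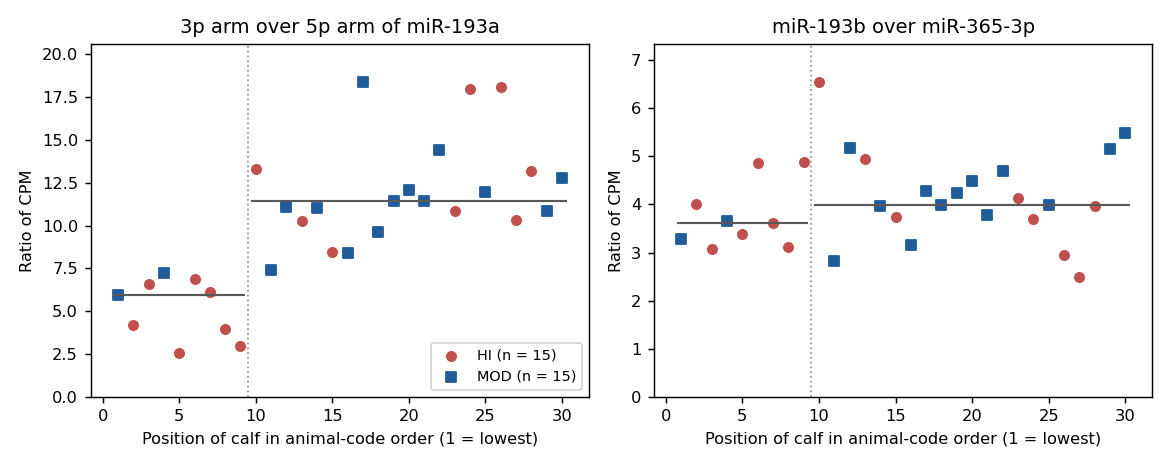
Ratio of CPM within each library for the strands of miR-193a (left) and for miR-193b over miR-365-3p (right), by position of the calf in the order of animal codes, with circles for HI, squares for MOD, grey lines for medians and a dotted line after the ninth calf. The left ratio lies between 2.53 and 7.23 before the dotted line and between 7.38 and 18.4 after it, whereas the right ratio overlaps across the line.

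To test the mates without a boundary taken from the values, the rank of the animal code, scaled from the lowest code to the highest, was entered with diet into limma, a linear model fitted to log2(CPM + 0.25) of all 476 miRNAs with shared variance estimates. The coefficient is the fitted log2 difference from the lowest to the highest code. A miRNA was called at a Benjamini-Hochberg adjusted p under 0.1. Along the codes 89 of 476 miRNAs (18.7%) were called, 60 higher (12.6%) and 29 lower (6.09%) at high codes. Of the 3 mates, 0 were called, and 0 had an unadjusted p under 0.05. edgeR's quasi-likelihood test and DESeq2's Wald test on recovered reads also called 0 of the 3, with 86 and 110 calls over all miRNAs.

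For miR-193a-5p the fitted difference was 0.0016 on the log2 scale (95% interval -0.52 to 0.52, adjusted p = 0.999 from limma). For miR-193b it was 0.10 (95% interval -0.32 to 0.52, adjusted p = 0.774 from limma), and for miR-365-3p it was 0.010 (95% interval -0.36 to 0.38, adjusted p = 0.973 from limma). MiR-193a-3p, given as a description, had a fitted difference of 1.61 (95% interval 1.02 to 2.20), the 11th largest in size and the 4th most positive of the 476. The interval of miR-193a-3p gives the uncertainty of its fitted difference in this model. It is no test, because the set was chosen for this difference. For the mates, differences inside the intervals given above are not excluded.

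**Figure D3:**
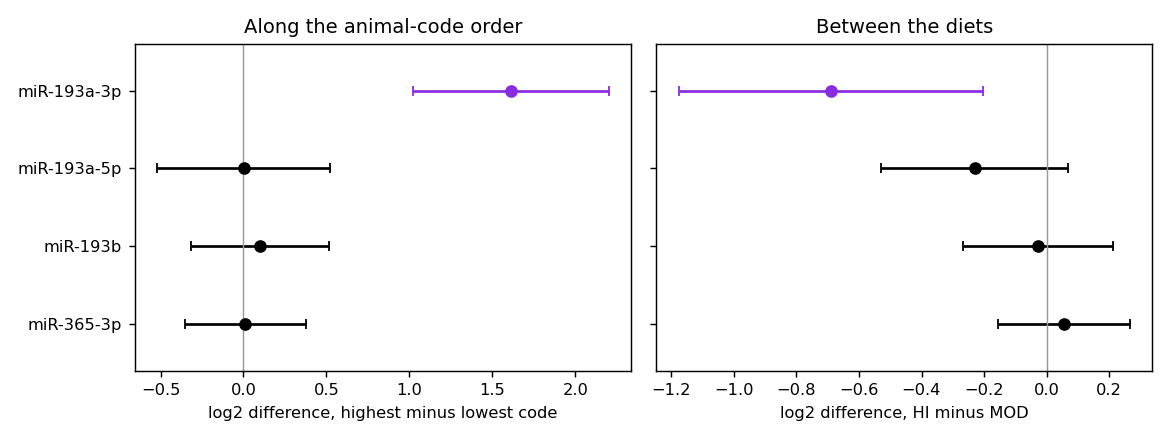
Fitted log2 difference of the 4 tested members with 95% intervals from limma, along the order of animal codes (left, highest minus lowest code, diet in the model) and between the diets (right, HI minus MOD), n = 30 calves. The intervals of the 3 mates include 0 in both panels, whereas the values of miR-193a-3p, 1.61 and -0.69, are those for which the set was chosen and are drawn as a description.

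The direction of such small differences moved with the scaling of the libraries. The median code-order difference of all 476 miRNAs was 0.06 with TMM, 0.40 with library size only and -0.11 with upper quartile factors. The numbers called higher and lower at high codes changed with it, from 60 and 29 with TMM to 173 and 10 with library size only, 35 and 72 with upper quartile factors and 50 and 47 with DESeq2's size factors. Relative to the median of all miRNAs under each of these 4 scalings, miR-193a-5p differed by -0.059 to -0.055, miR-193b by 0.036 to 0.061 and miR-365-3p by -0.054 to -0.032 on the log2 scale. MiR-193a-3p differed by 1.55 to 1.57 on the same measure.

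**Figure D4:**
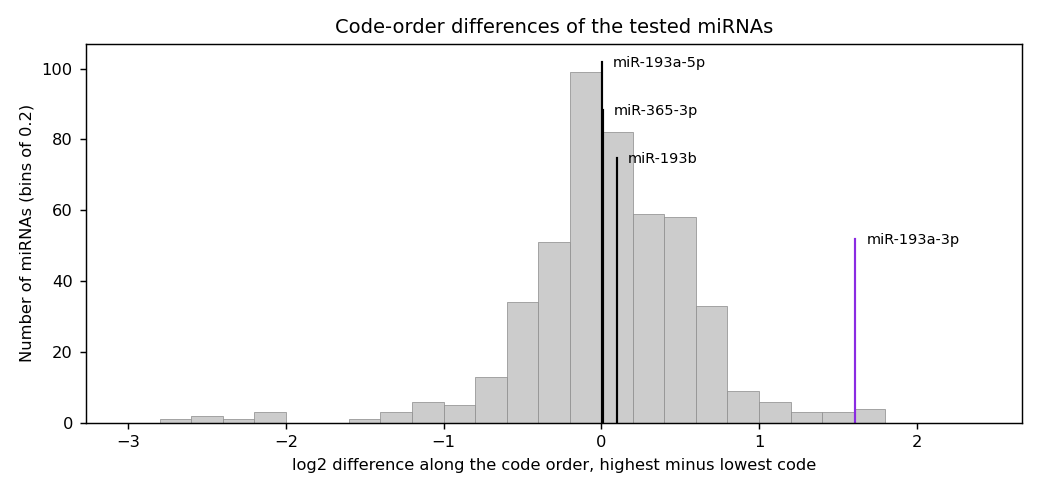
Number of miRNAs by fitted log2 difference along the code order (highest minus lowest code, bins of 0.2) for the 476 tested miRNAs, with vertical lines at the 4 members, whose heights only hold the labels. The lines of the 3 mates, at 0.0016, 0.010 and 0.10, stand at the middle of the distribution and that of miR-193a-3p, at 1.61, in its upper tail.

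Depth and the levels of cell type markers were set beside the step of miR-193a-3p, and their part in it was not tested. Depth was not matched among the shallower libraries. There the lowest codes held 7692949 to 8988042 reads, and the other codes from 6291375 (A37840) to 7974197 (A93744). The CPM of a library summed to 1148158 ± 124125 (SD, n = 9) in the lowest codes and 950923 ± 119027 (SD, n = 21) in the others at all depths. Within the 21 shallower libraries, miR-193a-3p was 25.2 ± 8.31 CPM (SD, n = 9) in the lowest codes and 64.3 ± 6.26 CPM (SD, n = 12) in the other codes. The 9 deeper libraries, all of other codes, had 62.2 ± 18.2 CPM (SD, n = 9). Its fitted code-order difference was 1.61 with total reads as a term and 1.69 with a score of 8 tested pituitary miRNAs as a term. The summed level of the pituitary list, 10 miRNAs with reads such as miR-375 and the miR-200 family, ranged between 2325 and 100739 CPM for the lowest codes and between 2289 and 84373 CPM for the others. The median fitted code-order difference of its tested miRNAs was -2.17 on the log2 scale, and 0 of the 8 were called. In the neuron list all 11 rows were tested, but miR-124a and miR-124b had the same fitted code-order difference, 0.570. The same held for miR-129 and miR-129-5p, at -0.170. The sums, counts and median of this list thus hold each of these miRNAs as 2 rows. For the neuron list, the sums ranged from 23099 to 99225 CPM and from 28412 to 95056 CPM. Of its 11 rows, 2 were called higher at high codes, where 12.6% of all tested were. The median fitted code-order difference of the neuron list was 0.51 on the log2 scale, whereas its summed level had a median of 79915 CPM in the lowest codes and a lower one, 70052 CPM, in the others. For the vessel wall list, miR-143, miR-145 and both strands of miR-126, they ranged from 113930 to 265524 CPM and from 49072 to 338016 CPM, with 0 of 4 called. In the lists for choroid plexus and ependyma, oligodendrocytes, erythroid cells and skeletal muscle 0 miRNAs were called, and the single liver marker, miR-122, was not tested. As these are bulk samples, fewer cells of a type and less RNA per cell cannot be told apart.

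The second digit of the code, whose meaning the labels do not give, was also set beside the step, and its part in it was not tested. The 9 lowest codes held 2 calves with the digit 1, 1 with 2, 1 with 3 and 5 with 7. The other calves of each of these digits lay in the upper range of miR-193a-3p. This was fixed in advance by the choice of the boundary, whatever the digit. With this digit as a term, in 29 calves since 1 digit had a single calf, the fitted code-order difference of miR-193a-3p was 1.67.

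The miRNAs most like miR-193a-3p over the 30 calves were not its mates. By Spearman's rho of log2(CPM + 0.25), given as a description, the 5 highest of 475 were miR-188 (0.825), miR-33b (0.822), miR-331-3p (0.815), miR-29c (0.782) and miR-494 (0.727). MiR-494, for example, ranged between 21.7 and 41.9 CPM for the lowest codes, whereas the others had at least 52.8 and at most 108.2 CPM. The 3 lowest were miR-502b (-0.704), miR-502a (-0.675) and miR-409a (-0.672). On the same measure miR-193a-5p had a rho of 0.418 (rank 64 of 475), miR-365-3p of 0.199 (rank 146) and miR-193b of 0.090 (rank 208). These values pool calves on both sides of the step, and thus rest in part on it.

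The diet comparison asked whether the plane of nutrition changed these miRNAs. MiR-193a-3p, chosen on this contrast, averaged 42.0 ± 20.4 CPM (SD, n = 15) under HI, from 10.6 to 69.8 with a median of 40.2, and 61.9 ± 16.9 CPM (SD, n = 15) under MOD, from 27.0 to 88.3 with a median of 66.2. The groups overlapped, with 13 of 15 HI calves below the MOD median. The 9 lowest codes held 7 HI and 2 MOD calves, so that diet and code order were unevenly mixed. The fitted log2 difference of HI minus MOD was -0.69 alone and -0.49 with the code rank as a term. With the class of the 9 lowest codes as a term it was -0.27, a value that depends on a class found from miR-193a-3p itself and is given as a description. Among the other 21 calves miR-193a-3p had 58.1 ± 11.7 CPM (SD, n = 8) under HI against 66.7 ± 12.2 CPM (SD, n = 13) under MOD, and the ranges overlapped.

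Of the 3 mates, 0 passed the study's thresholds between the diets (adjusted p below 0.1, change of more than 1.5-fold), and 0 had an unadjusted p under 0.05. In limma 0 of all 476 miRNAs (0%) passed them, where 21 had an unadjusted p under 0.05. The study, with edgeR, reported 1 miRNA between the diets, miR-2419-3p, which is no member. Here its log2 difference was 1.09 (adjusted p = 0.256 from limma). In edgeR's quasi-likelihood test 0 passed and 20 had an unadjusted p under 0.05, while DESeq2's Wald test called 1, which was no member. MiR-193a-5p averaged 4.98 ± 1.62 CPM (SD, n = 15) under HI, from 3.0 to 8.18, and 5.84 ± 1.60 CPM (SD, n = 15) under MOD, from 3.44 to 8.57. Its log2 difference was -0.23 (95% interval -0.53 to 0.07, adjusted p = 0.912 from limma), and 11 of 15 HI calves lay below the MOD median. MiR-193b averaged 131.5 ± 32.6 CPM (SD, n = 15) under HI against 134.5 ± 33.2 CPM (SD, n = 15) under MOD, a log2 difference of -0.028 (95% interval -0.27 to 0.21, adjusted p = 0.984 from limma). MiR-365-3p averaged 33.6 ± 3.51 CPM (SD, n = 15) under HI against 33.1 ± 8.38 CPM (SD, n = 15) under MOD, a log2 difference of 0.055 (95% interval -0.16 to 0.27, adjusted p = 0.982 from limma). All 3 intervals lay inside the 1.5-fold threshold in both directions. MiR-365-5p, not tested, averaged 0.315 ± 0.192 CPM (SD, n = 15) under HI against 0.315 ± 0.220 CPM (SD, n = 15) under MOD.

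The diet difference of a mate could still change along the codes, which an interaction of diet and code rank tested. It was called for 0 of 476 miRNAs in limma (24 at an unadjusted p under 0.05) and for 0 in edgeR and in DESeq2. For the mates the interaction was 0.25 for miR-193a-5p (adjusted p = 0.93 from limma), -0.66 for miR-193b (adjusted p = 0.711 from limma) and 0.25 for miR-365-3p (adjusted p = 0.885 from limma), each on the log2 scale.

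Whether mates rose and fell with miR-193a-3p from calf to calf was examined within the lowest 9 and the other 21 codes, because a pooled correlation would rest on the step. These classes are divided by miR-193a-3p itself, which narrows its range within each. The relation with the smallest p was that of the strands of miR-193a in the 21 calves, with Pearson's r = 0.55 (permutation p = 0.00882, adjusted over 6 relations 0.0529) and Spearman's rho = 0.565 (permutation p = 0.00812, adjusted 0.0487). When A42931 and A97821, which lay farthest from the median, were left out, r was 0.443 (permutation p = 0.0589, adjusted 0.170) and rho 0.523 (permutation p = 0.0238, adjusted 0.0715). With the diet means removed r was 0.481 (permutation p = 0.0290, adjusted 0.174) and rho 0.416 (permutation p = 0.0624, adjusted 0.194). In values not scaled by TMM, r was 0.676 (adjusted permutation p = 0.0012) and rho 0.687 (adjusted permutation p = 0.00396). The relation was positive in all of these, and whether it passed the threshold depended on the setting. In the 9 lowest codes the strands had r = 0.468 (exact permutation p = 0.191, adjusted 0.370) and rho = 0.567 (exact permutation p = 0.121, adjusted 0.241).

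**Figure D5:**
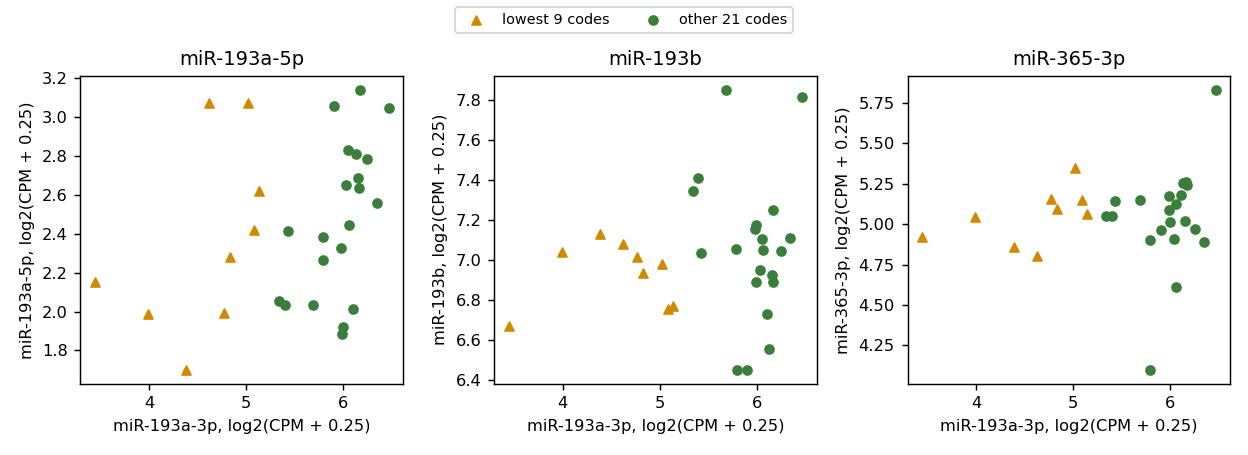
Level of each mate against miR-193a-3p, both as log2(CPM + 0.25), with triangles for the 9 calves with the lowest codes and circles for the other 21. The triangles lie to the left of the circles in each panel, the step of miR-193a-3p, while the heights of triangles and circles overlap, with 6, 7 and 4 of the 9 triangles below the median of the circles for miR-193a-5p, miR-193b and miR-365-3p, and within the circles the left panel, miR-193a-5p, has r = 0.55.

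For miR-365-3p, r with miR-193a-3p was 0.525 in the 9 calves (exact permutation p = 0.139, adjusted 0.370) and 0.270 in the 21 (permutation p = 0.247, adjusted 0.370), with rho of 0.60 (exact permutation p = 0.0968, adjusted 0.241) and 0.232 (permutation p = 0.307, adjusted 0.461). Without the 2 farthest calves r was 0.707 in the lowest codes (exact permutation p = 0.0849) and 0.366 in the others (permutation p = 0.129). In values not scaled by TMM, r in the 21 calves was 0.576 (permutation p = 0.0157, adjusted 0.0470).

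For miR-193b, r was 0.087 in the 9 calves (exact permutation p = 0.804, adjusted 0.804) and -0.091 in the 21 (permutation p = 0.686, adjusted 0.804), with rho of -0.317 (exact permutation p = 0.410, adjusted 0.492) and -0.122 (permutation p = 0.597, adjusted 0.597). Leaving out A27823 and A13745, the farthest of the lowest codes, turned r to -0.896 in the 7 that remained (exact permutation p = 0.00238, adjusted 0.0143), so the relation of these miRNAs in the lowest codes depended on those 2 calves. Leaving out A42931 and A97821 turned r in the others to 0.137 (permutation p = 0.583).

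The mates were also set against each other over the 30 calves, a comparison chosen after the values had been seen. MiR-193b and miR-365-3p, the neighbours of 1 gene pair, had r = 0.456 (permutation p = 0.0130, adjusted over 3 relations 0.0391) but rho = 0.111 (permutation p = 0.562, adjusted 0.562). Within the lowest 9 codes r was -0.162 (exact permutation p = 0.665) and within the other 21 it was 0.526 (permutation p = 0.0149). Without the 2 calves farthest on miR-193b, A37840 and A47825, r was 0.260 (permutation p = 0.199) and rho -0.030 (permutation p = 0.880). The value of r was thus lower without both calves, and the part of each was not tested. In MOD calf A41971, which was kept in, miR-365-3p was the lowest of all at 16.9 CPM and miR-193b stood at 87.4 CPM. In MOD calf A47825 miR-365-3p was the highest of all at 56.6 CPM, miR-193b stood at 225 CPM and miR-193a-3p was also the highest at 88.3 CPM. In HI calf A37840 miR-193b was the highest at 230.6 CPM, whereas miR-365-3p was 35.2 CPM, near its median. MiR-193a-5p had r = -0.149 with miR-193b (permutation p = 0.437, adjusted 0.437) and 0.223 with miR-365-3p (permutation p = 0.241, adjusted 0.361).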

How the data were processed

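Small RNA was sequenced from the ARC of 30 calves, with 1 library per calf, and diets were taken from the labels. The labels name a stranded RNA kit where the methods name a small RNA kit. By the study's methods, adapters were cut off, reads of 15 to 28 bases were retained and those of other short RNA classes discarded. MiRDeep2, with Bowtie and the ARS-UCD1.2 genome, then gave the counts of known miRNAs. The deposited signal values, made by the authors, are decimals with the form of CPM over TMM-scaled library sizes, since recomputed TMM factors differed from the implied ones by at most 0.572%. The study named edgeR but not its normalization. Reads were recovered from the worth of 1 read in each library, and 94.5% to 97.9% of values under 200 reads came out whole (within 0.1 read). A floor of 3 reads lay between 0.138 and 0.558 CPM. This floor covers counting error only. Of 435 pairs of libraries, none agreed within sampling noise (lowest chi-square per degree of freedom 82.1).

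Tests used limma on log2(CPM + 0.25) with a variance trend, over the 476 miRNAs kept by filterByExpr. The pseudocount was worth 2.08 reads at the median depth, and fold changes on this scale understate those of low miRNAs. The code was tested on simulated data. Correlations used two-sided permutation tests, exact under 10 calves and with 100000 resamples otherwise. Members, lists and tests were chosen with earlier results of these data known. The rule named all members, the 5 miRNAs most and the 3 least like miR-193a-3p, and marker lists. No miRNA sequences were used here. Alternatives covered pseudocount, filter, scaling, test, covariates, the form of the code term and leaving out each calf. Software was R 4.3.3, limma 3.58.1, edgeR 4.0.16, DESeq2 1.42.0, Python 3.11.15 and scipy 1.17.1.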

Additional observations from a re-analysis of the deposited data

How the results depend on the processing

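No mate was called in any alternative, and the difference of miR-193a-3p along the codes kept its direction in all of them, from 0.85 on the log2 scale (upper against lower 15 codes) to 1.97 (library size only). Depth limits miR-365-5p and the armless miR-193a row, which have too few reads to compare. No paired analysis was possible because each calf belongs to 1 diet and the labels name no pairs of calves between the diets. By the study's methods, the diet groups were balanced for age, bodyweight, farm and sire, which the labels do not give. The fits of the shallower libraries, count tests of the interaction, other settings for the 9 lowest codes and relations between mates were chosen after seeing the data. With a mean CPM of at least 10, miR-193a-5p was not tested.

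Counts of miRNAs called along the codes were 183 with library size only and 136 for the other 21 against the lowest 9, against 89. Counts called between the diets were 1 with DESeq2's Wald test and from 0 to 1 without 1 calf (1 without HI calf A77860 or MOD calf A97854), against 0. The boundary of the lowest 9 was found from the values, so counts on it are a description. With library size only, which raised the median of all miRNAs along the codes from 0.06 to 0.40, the values of the mates moved with it. The code-order differences were 0.348 for miR-193a-5p, 0.464 for miR-193b and 0.371 for miR-365-3p (0 called), and the other 21 exceeded the lowest 9 codes by 0.303, 0.432 and 0.314, against 0.020, 0.14 and 0.020. The direction of differences near 0 changed as follows, and the cause was not tested. Along the codes, miR-193a-5p differed by -0.0003 with a pseudocount of 0.5, -0.0032 with 1, -0.167 with upper quartile factors, -0.0705 with DESeq2 size factors, -0.0755 in edgeR, -0.1289 in DESeq2, -0.0093 with total reads as a term and -0.0341 for the upper 15 against the lower 15 codes. MiR-365-3p differed by -0.1654 with upper quartile factors, -0.0653 with DESeq2 size factors, -0.0411 in edgeR, -0.092 in DESeq2, -0.023 with total reads, -0.0426 with the pituitary score, -0.0141 with the second digit and -0.0092 with no diet term. MiR-193b differed by -0.0758 with upper quartile factors, -0.0033 in DESeq2 and -0.0123 for the upper against the lower 15 codes. Between the diets, miR-193b differed by 0.003 with upper quartile factors, 0.0039 with total reads, 0.017 with the class of 9 and 0.0532 in the shallower libraries. Leaving out 1 calf gave from -0.1163 to 0.0964 for miR-193a-5p, from 0.0401 to 0.2048 for miR-193b and from -0.0604 to 0.0921 for miR-365-3p along the codes, and from -0.0883 to 0.0275 for miR-193b and from -0.0103 to 0.1133 for miR-365-3p between the diets. Correlations with miR-193a-3p in the 21 calves were 0.676 for miR-193a-5p (adjusted permutation p = 0.0012), 0.20 for miR-193b and 0.576 for miR-365-3p (adjusted permutation p = 0.0470) without TMM scaling, 0.137 for miR-193b and 0.443 for miR-193a-5p without the 2 farthest calves, and 0.481 for miR-193a-5p after diet. In the lowest codes miR-193b gave -0.896 without the 2 farthest calves. The correlation of miR-193b and miR-365-3p over all calves was 0.260 without the 2 farthest.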
